A study of Homo sapiens with 33 samples.

Results

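Major histocompatibility complex (MHC) class I presentation was followed through 9 genes, HLA-B, HLA-C, HLA-E, HLA-F, B2M, TAP1, TAP2, TAPBP and PSMB9, chosen by name from the 58302 genes of an RNA-sequencing matrix of pleural mesothelioma cell lines treated with palbociclib. All 9 were among the 17803 genes that reached 100 CP20M (counts scaled to a total of 20000000 per library) in at least 1 library. The matrix held 33 libraries. The palbociclib-sensitive malignant pleural mesothelioma lines were H2052, with 2 pairs of palbociclib and DMSO libraries, and H2452, H28 and MSTO-211H, with 3 pairs each. The resistant cells were MPP89, a mesothelioma line with a mutated RB1, with 2 pairs, and MeT-5A, a non-malignant mesothelial line that SV40 rendered immortal and in which pRb is deficient, with 1 pair and 1 further untreated library. Palbociclib, an inhibitor of the cell cycle kinases CDK4 and CDK6, was given at 1 µM and its control was the solvent DMSO. The exposure lasted 9 days in 7 sensitive and 3 resistant pairs and 10 days in 4 sensitive pairs, 1 per line. In these 4 experiments a further dish was washed free of drug after palbociclib and kept for 48 hours in complete medium (washout). Every line is a single established culture, so that a difference between the sensitive and the resistant class is a difference between 4 particular lines and 2 others, and replicate pairs are repeats of a line.

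MHC class I molecules display peptides cut from intracellular proteins to cytotoxic T cells and natural killer cells. Peptides are made by the proteasome, in which the inducible catalytic subunit PSMB9 can replace a constitutive one, and are carried into the endoplasmic reticulum by the transporter TAP1-TAP2. There, tapasin (TAPBP) bridges the transporter to a class I heavy chain (HLA-B, HLA-C, HLA-E or HLA-F) bound to its light chain, β2-microglobulin (B2M), until a peptide is loaded. HLA-B and HLA-C are classical, highly polymorphic heavy chains, while HLA-E and HLA-F are less variable. HLA-E mostly presents peptides from the leader sequences of other class I chains to receptors of natural killer cells. Interferons are the best known inducers of this whole set, acting among others through IRF1 and the class I transactivator NLRC5.

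The genes lie in the MHC on chromosome 6 of GRCh38, except B2M, on chromosome 15 from 44711358 to 44718851. HLA-F spans 29722775 to 29738528 and HLA-E 30489509 to 30494194, both on the forward strand, whereas HLA-C (31268749 to 31272130) and HLA-B (31353872 to 31367067) are on the reverse strand. The antigen processing genes follow toward the centromere, with TAP2 from 32821833 to 32838739, TAP1 from 32845209 to 32853816, PSMB9 from 32844136 to 32859851 and TAPBP from 33299694 to 33314284. PSMB9 is on the forward strand and the other 3 are on the reverse strand. From their RefSeq starts, which are separated by 488 bases, TAP1 and PSMB9 are read away from each other. In the spans given above, however, PSMB9 covers the whole of TAP1 on the opposite strand.

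The stretch upstream of the transcription start is shown for 4 genes that behaved differently under palbociclib: both heavy chains that rose in every sensitive pair, their light chain, which did not pass the test, and PSMB9, which fell in some lines. Each sequence is the 200 bases before the RefSeq start (assembly GRCh38.p14), written 5′ to 3′ in the direction of transcription, and capitals mark matches, on either strand, to the interferon regulatory factor core AANNGAAA, the κB consensus, CCAAT or the CRE core TGACG. The windows are chr6:31357180-31357379, reverse strand, for HLA-B, chr6:31272093-31272292, reverse strand, for HLA-C, chr15:44711317-44711516, forward strand, for B2M and chr6:32853992-32854191, forward strand, for PSMB9.
HLA-B: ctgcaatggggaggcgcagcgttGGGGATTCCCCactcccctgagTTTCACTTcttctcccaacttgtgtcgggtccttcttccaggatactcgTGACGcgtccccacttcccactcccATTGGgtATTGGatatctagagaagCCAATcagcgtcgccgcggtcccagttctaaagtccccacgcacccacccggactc
HLA-C: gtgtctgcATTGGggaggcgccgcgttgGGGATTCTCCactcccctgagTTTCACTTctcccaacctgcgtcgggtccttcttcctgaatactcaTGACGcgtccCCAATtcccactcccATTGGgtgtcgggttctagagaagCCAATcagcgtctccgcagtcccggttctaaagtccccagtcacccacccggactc
B2M: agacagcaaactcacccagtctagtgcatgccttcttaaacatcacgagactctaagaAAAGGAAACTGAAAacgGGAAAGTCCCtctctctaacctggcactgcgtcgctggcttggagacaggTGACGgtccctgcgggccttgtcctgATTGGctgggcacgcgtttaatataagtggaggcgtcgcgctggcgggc
PSMB9: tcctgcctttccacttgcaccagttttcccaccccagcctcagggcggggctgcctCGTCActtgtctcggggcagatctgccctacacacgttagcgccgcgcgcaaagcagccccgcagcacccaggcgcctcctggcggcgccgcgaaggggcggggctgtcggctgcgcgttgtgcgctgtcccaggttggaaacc

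RefSeq windows were matched for 8 of the 9 genes, HLA-E being the one without an entry. The interferon regulatory factor core was found in the windows of 7 of these 8 genes, the PSMB9 window being the exception. Of all 35116 windows of the same length, 16.1% held it. The TAP1 window lies between the RefSeq starts of TAP1 and PSMB9. The TAP1 matches to this core and to the κB consensus are therefore also upstream of the RefSeq start of PSMB9, outside the PSMB9 window. κB consensus matches lay in the windows of 5 genes (HLA-B, HLA-C, B2M, TAP1 and TAPBP; 8.14% of all windows), CCAAT in 4 (HLA-B, HLA-C, HLA-F and B2M; 28%) and TGACG in 5 (HLA-B, HLA-C, B2M, TAP2 and PSMB9; 18.4%). HLA-B and HLA-C therefore shared all these motifs with B2M, in unequal number and at unequal positions. Any part of the motifs in the responses to the drug, given further on, was not tested. A match only says that these letters are present in the window.

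Without drug, the 9 genes separated the lines over a wide range. In the DMSO libraries of H2452, HLA-B stood at 29710, 35340 and 33939 CP20M, whereas it reached only 632, 598 and 925 CP20M in H28. From the mean log2 levels, these lines differed 46.1-fold. In MPP89 the values were 27462 and 23702, in MSTO-211H 9465, 9712 and 8676, in H2052 2891 and 4225, and in the single MeT-5A library 3506 CP20M. H28 was thus below every other line without overlap. HLA-C kept the same order of lines, with 21469 ± 2612 CP20M (SD, n = 3) in H2452 and 1347 ± 297 (n = 3) in H28.

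H2452 had the highest mean for 8 of the 9 genes. The exception was TAP2, which was highest in MPP89. The lowest line was H28 for HLA-B, HLA-C, HLA-E, B2M, TAP2 and PSMB9, MeT-5A for HLA-F and TAP1, and H2052 for TAPBP. The ratio of the highest to the lowest line, taken from mean log2(CP20M + 10), was 23.4 for PSMB9, 16.0 for HLA-C, 13.9 for HLA-F, 6.42 for TAP2, 6.32 for B2M, 6.05 for TAP1, 5.35 for HLA-E and 3.68 for TAPBP. The median of this ratio was 6.42 for the 9 genes and 3.27 for all genes tested. In the limma F test all 9 genes differed among the lines, as did 95.6% of all genes, with adjusted p from 6.58e-10 for HLA-B to 8.02e-05 for TAPBP.

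**Figure D1:**
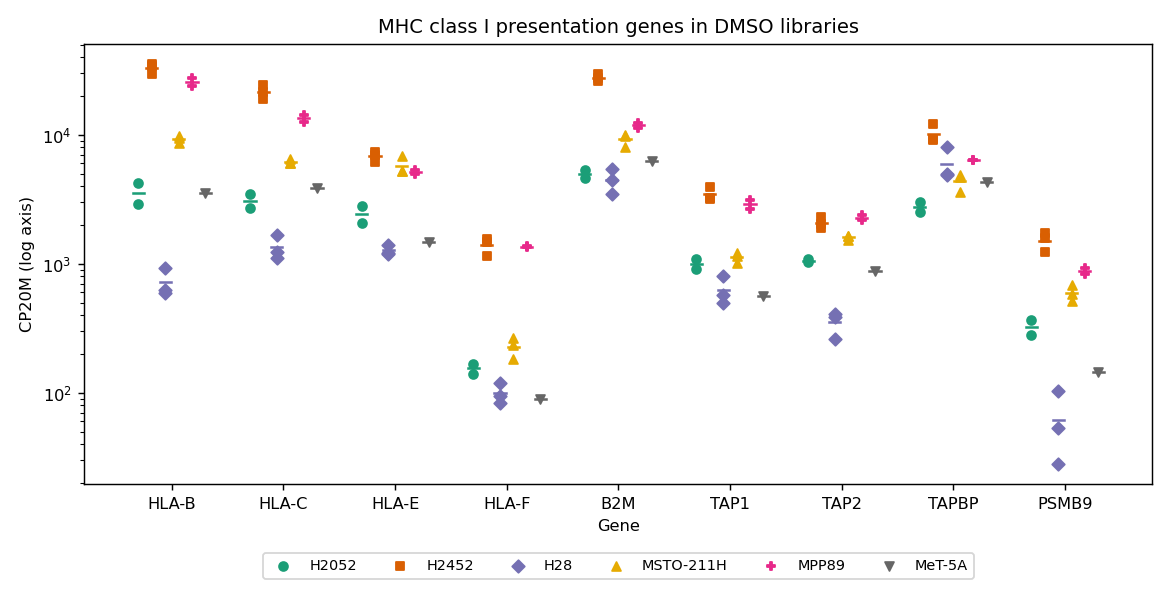
Level of the 9 genes (x axis) in CP20M on a log axis in each DMSO library, with a horizontal bar for the mean of each line. H2452 and MPP89 lie highest for most genes, and H28 lies lowest for 6 of them, including HLA-B (598 to 925 CP20M) and PSMB9 (28 to 103 CP20M).

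Several neighbours in the order of levels could not be separated by the limma test. For HLA-B, H2452 and MPP89 (adjusted p = 0.128) and MeT-5A and H2052 (0.996) were not distinguished, while every other step of the order was. For HLA-C, H2452 was above MPP89 by 0.68 on the log2 scale (adjusted p = 0.00527), and only MeT-5A and H2052 were not distinguished (0.242). For HLA-E, H2452, MSTO-211H and MPP89 formed a group without distinguishable neighbours (0.144 and 0.412), above H2052 by 1.08 for MPP89 (0.000284). For B2M, only the first step was past the threshold, H2452 lying 1.23 above MPP89 (6.41e-05), and none of the 4 lower steps was (0.0516 to 0.364). HLA-F was higher in MPP89 than in MSTO-211H by 2.54 (5.60e-07), a gap between lines whose HLA-C differed by 1.11.

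Among the antigen processing genes, the resistant line MPP89 and the sensitive line H2452 lay together on top. TAP1 did not separate them (adjusted p = 0.267), nor did TAP2 (0.493) or PSMB9 (0.0723). TAPBP was higher in H2452 by 0.67 (0.0188). The level of these genes in DMSO therefore did not sort the lines into the sensitive and the resistant class, since MPP89 was near the top and MeT-5A in the lower part of the order for HLA-F, TAP1 and PSMB9. In the untreated MeT-5A library, which had no DMSO, HLA-B was at 4557, B2M at 7816, TAP1 at 881 and PSMB9 at 227 CP20M, each above the DMSO library of that line (3506, 6264, 560 and 146 CP20M). With 1 library each, this difference has no replicate check.

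The heavy chain genes share much of their sequence and are polymorphic, and how reads that fitted several of them were treated is not given in the sources used here. The division of reads among HLA-B, HLA-C, HLA-E and HLA-F, and the effect of each line's alleles on its levels, were not tested. The matrix also held 9 further features that overlap the 9 genes, 7 of which reached 100 CP20M. Among them, AL671883.3, on the strand opposite to HLA-B, had a median of 2545 and a highest value of 12475 CP20M, and PSMB8-AS1 overlapped both TAP1 and PSMB9. The library kit kept the strand of the RNA, but the strand setting of the read counting is not given, so reads of these features and of the genes they overlap may not be separable. The same limit holds for TAP1 and PSMB9, whose spans overlap each other on opposite strands.

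After palbociclib, 3 of the 9 genes rose over the sensitive lines and none fell. Over all genes tested, 5.58% rose and 9.37% fell. A rise or fall is a fold change over 1.5 at an adjusted p under 0.05 in limma, fitted on log2(CP20M + 10) with each experiment as a block, and fold changes on this scale understate changes of low genes. The 3 genes were the heavy chains HLA-B, HLA-C and HLA-E. The median change was 0.27 on the log2 scale for the 9 genes and -0.11 for all genes.

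HLA-B was higher with palbociclib in 11 of 11 sensitive pairs. In H2052 it went from 2891 and 4225 CP20M in DMSO to 5805 and 6102 CP20M in palbociclib. In H2452 it went from 29710, 35340 and 33939 to 50171, 51521 and 53831 CP20M. In both lines the treated libraries lay above all controls. In H28 the change was from 632, 598 and 925 to 1284, 724 and 1974 CP20M, and in MSTO-211H from 9465, 9712 and 8676 to 12846, 22732 and 25441 CP20M. Over all genes, treated libraries lay above all controls for 18.4% and below them for 52.1% in H2052, with 12.2% and 27.3% for H2452, 13.6% and 21.4% for H28, and 14.4% and 24.3% for MSTO-211H. For HLA-B, groups overlapped only in H28, where the second experiment gave a small change of 0.27. The mean log2 change was 0.83 (SE 0.107, adjusted p = 4.73e-05), a 1.77-fold difference.

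HLA-C was also higher in 11 of 11 pairs. Its libraries went from 2688 and 3461 to 5094 and 5028 CP20M in H2052, from 18865, 24088 and 21454 to 36713, 38376 and 39661 in H2452, from 1240, 1118 and 1682 to 2474, 1328 and 3184 in H28 and from 6441, 6057 and 6033 to 8038, 12990 and 14184 in MSTO-211H. As for HLA-B, the smallest changes were in the second experiment of H28 and the first of MSTO-211H, and the groups overlapped in H28 alone. The mean log2 change was 0.80 (SE 0.0904, adjusted p = 1.76e-05). The changes of HLA-B and HLA-C did not differ among the 4 sensitive lines by the F test (adjusted p = 0.588 and 0.915), although lines with HLA-B levels as far apart as H2452 and H28 entered it.

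HLA-E, the ligand of inhibitory natural killer receptors, was higher in 10 of 11 pairs. In H2052 the values went from 2076 and 2798 to 4240 and 4382 CP20M, in H2452 from 6171, 6999 and 7345 to 13196, 10780 and 15186, and in H28 from 1200, 1209 and 1399 to 2377, 1807 and 2767. These 3 lines showed no overlap. MSTO-211H moved little, from 5227, 6862 and 5223 to 6211, 6626 and 7571 CP20M, and its groups overlapped. Over the lines the log2 change was 0.70 (SE 0.102, adjusted p = 0.000119).

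HLA-F, a non-classical heavy chain, had a log2 change of 0.57 (SE 0.145, adjusted p = 0.00525), which fell short of the fold limit. It was higher in 10 of 11 pairs. MSTO-211H held both extremes, with values in DMSO of 268, 234 and 182 CP20M and in palbociclib of 190, 464 and 601 CP20M, that is a change of -0.48 in the first experiment and of 1.67 in the last. Without that first experiment the change of HLA-F was 0.68 and passed the test (adjusted p = 0.000739). When HLA-B, HLA-C, HLA-E and HLA-F were summed into a single feature, which takes no account of how reads were divided among them, the log2 change was 0.79 (SE 0.086, adjusted p = 1.37e-05).

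**Figure D2:**
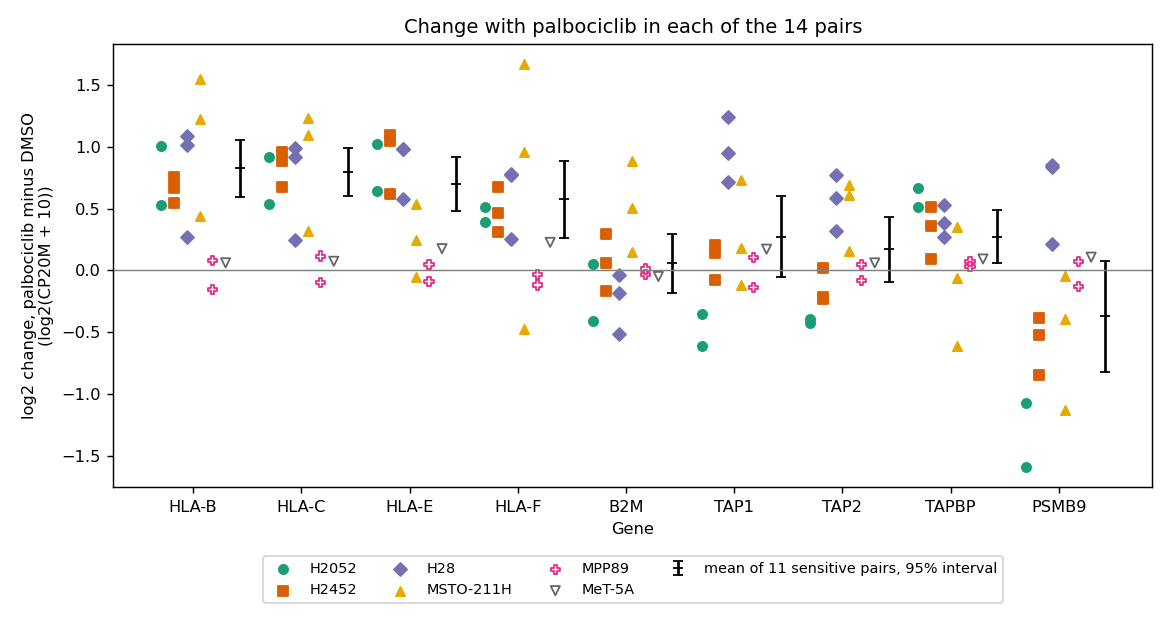
Change of each gene in each of the 14 pairs, as log2(CP20M + 10) in palbociclib minus DMSO, with filled symbols for sensitive and open symbols for resistant lines. Black bars give the mean of the 11 sensitive pairs with its 95% interval. HLA-B and HLA-C lie above 0 in 11 of 11 sensitive pairs, B2M lies around 0, and TAP1, TAP2 and PSMB9 split by line.

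The light chain gave a different picture. B2M was higher in 6 and lower in 5 of the 11 pairs, with a mean log2 change of 0.06 (SE 0.111, 95% interval -0.18 to 0.30, adjusted p = 0.690). Its values went from 4636 and 5338 to 4806 and 4019 CP20M in H2052, from 26013, 29675 and 27424 to 31836, 30955 and 24452 in H2452, from 3485, 4423 and 5403 to 3401, 3891 and 3779 in H28 and from 9767, 9901 and 8055 to 10816, 14044 and 14898 in MSTO-211H. The treated libraries lay above the controls in MSTO-211H alone, where the change of 0.51 did not pass the test (adjusted p = 0.118). Within pairs, the change of HLA-B exceeded that of B2M in 11 of 11, by a median of 0.72, and that of HLA-C did so in 11 of 11, by a median of 0.67. This comparison inside a library does not depend on how libraries were scaled.

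Antigen processing and loading genes did not pass the test over the sensitive lines. The log2 change was 0.27 for TAP1 (SE 0.153, adjusted p = 0.154), 0.17 for TAP2 (SE 0.122, 0.266) and -0.37 for PSMB9 (SE 0.210, 0.158). TAPBP, at 0.27 (SE 0.10), had an adjusted p of 0.0371 but was under the fold limit, and it was higher in 9 of 11 pairs. Among lines, however, TAP1, TAP2 and PSMB9 differed in sign.

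The F test for a difference of the response among the 4 sensitive lines was past an adjusted p of 0.05 for 4 of the 9 genes, while 37.1% of all genes were. These were TAP2 (adjusted p = 0.00416), TAP1 (0.00435), PSMB9 (0.00449) and HLA-E (0.0442). The share of 4 in 9 was thus near that of all genes, and the HLA-E result was lost in 14 of 19 alternatives, with an adjusted p of up to 0.154. B2M was close to the threshold (0.0511), and TAPBP (0.103), HLA-B, HLA-C and HLA-F (0.938) were not past it.

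PSMB9 had the widest differences. In H2052 it dropped from 281 and 367 CP20M to 128 and 115 CP20M, and in H2452 from 1234, 1731 and 1581 to 941, 1198 and 874 CP20M. In both lines the treated libraries lay below all controls, as they did for 52.1% of all genes in H2052, where 2 libraries stand against 2. In MSTO-211H the values were 587, 689 and 514 in DMSO and 263, 522 and 497 CP20M in palbociclib, with overlap. H28 went the other way, from 28, 53 and 103 to 58, 104 and 121 CP20M, also with overlap. The log2 changes were -1.33 in H2052, -0.59 in H2452, -0.52 in MSTO-211H and 0.64 in H28. Leaving out H28, PSMB9 passed the test as lower over the other 3 lines (-0.75, adjusted p = 0.00405).

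TAP1 and TAP2, which form a single transporter, were lower with palbociclib in both pairs of H2052 and higher in the 3 pairs of H28. TAP1 went from 910 and 1089 to 712 and 708 CP20M in H2052 and from 498, 575 and 802 to 1190, 952 and 1558 CP20M in H28, in both cases without overlap. Of all genes, 52.1% lay below all controls in H2052, while 13.6% lay above them in H28 and 14.4% in MSTO-211H. The differences in H2052 did not pass the test, at -0.48 for TAP1 and -0.41 for TAP2 where the median of all genes was -0.24, and under other scalings they came as close to 0 as -0.12 and -0.05. In H2452 (3164, 3249 and 3951 against 3643, 3085 and 4361 CP20M) and in MSTO-211H (1212, 1147 and 1020 against 1114, 1301 and 1704 CP20M) the groups overlapped. TAP2 went from 1083 and 1026 to 802 and 779 CP20M in H2052, from 408, 262 and 384 to 510, 454 and 581 in H28 and from 1645, 1533 and 1655 to 1830, 2347 and 2674 in MSTO-211H, each without overlap. The change of TAP1 exceeded that of its neighbour PSMB9 in 10 of 11 pairs, by a median of 0.73, and that of TAP2 did so in 9 of 11, by a median of 0.62.

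Within single lines, H2052 raised 3 of the 9 genes and lowered 1, where 4.67% of all genes rose and 13% fell. They were HLA-E (log2 change 0.84, adjusted p = 0.0428), HLA-C (0.73, 0.0483) and TAPBP (0.59, 0.0414), with PSMB9 lower (-1.33, 0.0427). HLA-B, at 0.77, had an adjusted p of 0.0540. None of these 4 calls was kept with a pseudocount of 1, without the filter or without the trend, and that of PSMB9 was lost with both other scalings. H2452 raised 3 and lowered 1 (6.04% and 10.8% of all genes), namely HLA-E (0.92, 0.0186), HLA-C (0.84, 0.0179) and HLA-B (0.65, 0.0272), with PSMB9 lower (-0.59, 0.0294).

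In H28, 2 of the 9 genes rose and none fell (5.89% and 7.34% of all genes). They were TAP1 (0.97, adjusted p = 0.0282) and HLA-E (0.84, 0.0284). HLA-B (0.79, 0.0604) and HLA-C (0.72, 0.0605) missed the threshold. In MSTO-211H none of the 9 genes was called by limma (5.9% of all genes rose and 7.94% fell), although 4 had an unadjusted p under 0.05, and HLA-B had its largest mean change there (1.07, adjusted p = 0.0620). Calls in a single line rest on 2 or 3 pairs, and those in H2452 and H28 were mostly lost when 1 pair was left out, 0 or 1 of the rises remaining.

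In the resistant lines none of the 9 genes passed the test. HLA-B in MPP89 was at 27462 and 23702 CP20M in DMSO and at 24633 and 25061 CP20M in palbociclib, and in MeT-5A at 3506 and 3658 CP20M. HLA-C was at 14235 and 12532 against 13270 and 13581 CP20M in MPP89 and at 3882 against 4085 CP20M in MeT-5A. Over the 9 genes and 3 resistant pairs, the 27 log2 changes ran from -0.16 to 0.23. No gene of the matrix was called over the resistant lines (0% in either direction), 1258 genes having an unadjusted p under 0.05, and none of the 9 genes was among them. For HLA-B in MPP89 the 95% interval of the log2 change was -0.26 to 0.18, and for PSMB9 -0.23 to 0.17.

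The difference of the response between the classes was tested directly. It was past an adjusted p of 0.05, with a higher response in the sensitive lines, for 2 of the 9 genes, against 1.56% of all genes in this direction and 7.81% in the other. These were HLA-B (difference 0.83, SE 0.214, adjusted p = 0.0254) and HLA-C (0.77, SE 0.181, 0.0171). HLA-E had a difference of 0.65 (SE 0.206, adjusted p = 0.0565). For B2M the difference was 0.08, with a 95% interval of -0.39 to 0.55. Only 3 pairs stand for the resistant class, and neither call was kept when any 1 of them was left out.

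After 48 hours of washout, the heavy chain levels lay between those in palbociclib and in DMSO. In the 4 experiments, each with 1 library per condition, HLA-B in H2052 went from 4225 in DMSO to 6102 in palbociclib and 5303 CP20M after washout. The same conditions gave 33939, 53831 and 45756 CP20M for H2452, then 925, 1974 and 1560 for H28, and finally 8676, 25441 and 22937 for MSTO-211H. Each line showed the same sequence, with washout between the other 2 conditions.

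HLA-C gave 3461, 5028 and 4390 CP20M for H2052, 21454, 39661 and 33340 for H2452, 1682, 3184 and 2569 for H28 and 6033, 14184 and 13160 for MSTO-211H, in the order DMSO, palbociclib and washout. HLA-E gave 2798, 4382 and 3460 CP20M for H2052, 7345, 15186 and 12222 for H2452, 1399, 2767 and 2055 for H28 and 5223, 7571 and 6588 for MSTO-211H. HLA-B, HLA-C, HLA-E, HLA-F and TAPBP were all lower after washout than in palbociclib and above DMSO in 4 of 4 lines.

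**Figure D3:**
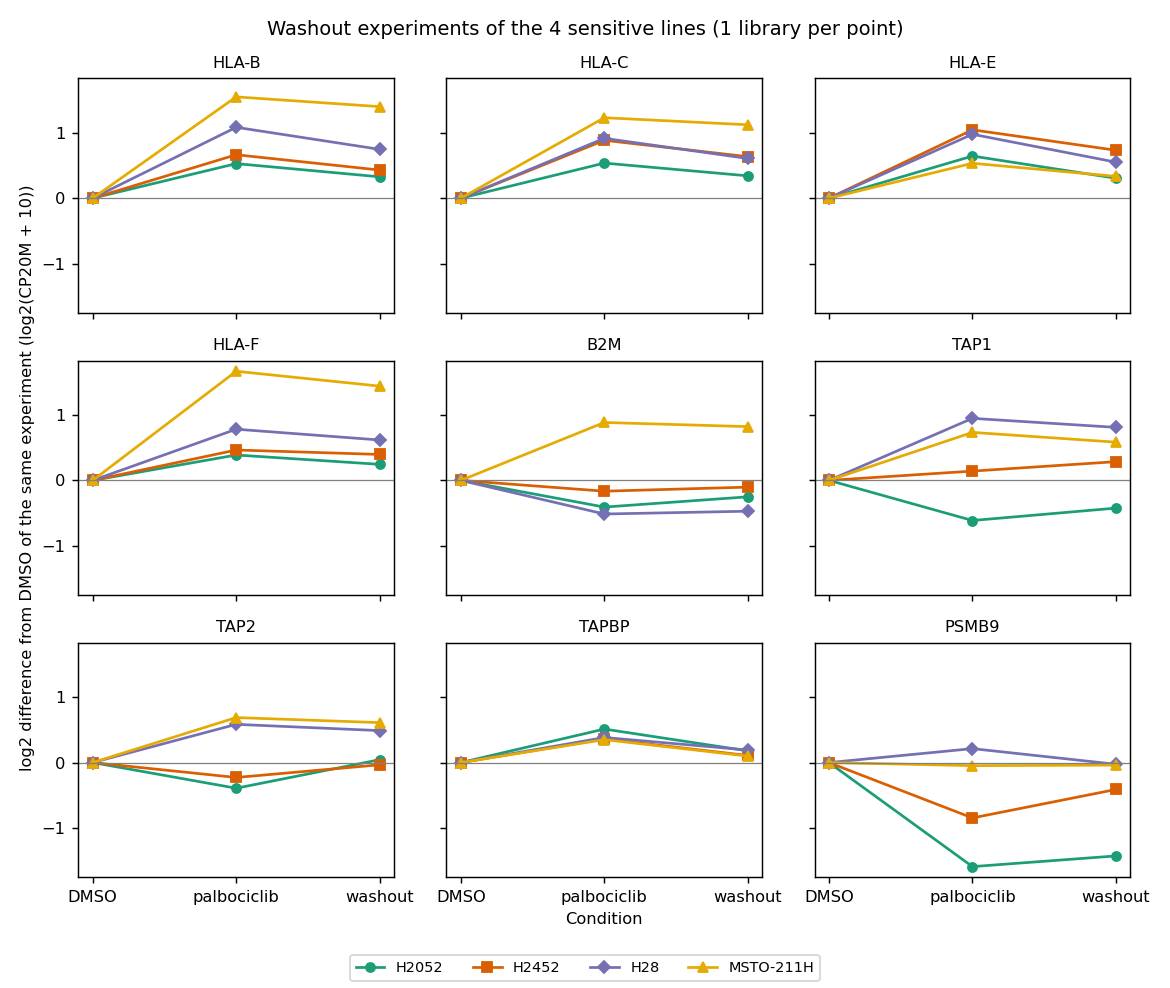
Log2 difference from the DMSO library of the same experiment, on log2(CP20M + 10), for the 9 genes in palbociclib and after 48 hours of washout in the 4 sensitive lines (1 library per point). HLA-B, HLA-C, HLA-E, HLA-F and TAPBP lie between the DMSO and palbociclib levels after washout in 4 of 4 lines.

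None of the 9 genes passed the limma test of washout against palbociclib, where 1.4% of all genes rose and 0% fell, 2322 genes having an unadjusted p under 0.05 and 2 of the 9 genes being among them. The log2 differences were -0.32 for HLA-E (SE 0.101, adjusted p = 0.191), -0.26 for TAPBP (SE 0.0710, 0.138), -0.23 for HLA-B (SE 0.169, 0.634) and -0.22 for HLA-C (SE 0.122, 0.516). Differences of B2M, TAP1, TAP2 and PSMB9 were from 0.01 to 0.11, and all 4 turned below 0 with median-of-ratios or upper-quartile scaling.

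Against DMSO, HLA-B and HLA-C were still higher after washout, so that 2 of the 9 genes were called higher and none lower (2.81% and 2.95% of all genes). The log2 differences were 0.73 for HLA-B (SE 0.169, adjusted p = 0.0269) and 0.68 for HLA-C (SE 0.122, 0.0115). HLA-E, at 0.48 (SE 0.101, 0.0192), was under the fold limit, and HLA-F, at 0.68 (SE 0.201), had an adjusted p of 0.0584. In the same 4 experiments, palbociclib against DMSO had raised HLA-B by 0.96, HLA-C by 0.89, HLA-F by 0.83 and HLA-E by 0.80, 4 of the 9 genes against 5.3% of all genes, in a fit that takes its spread from all 3 conditions. Fitted without the washout libraries, the same pairs gave 3 calls, HLA-F having an adjusted p of 0.0589. These comparisons share their DMSO libraries. Both calls of washout against DMSO depended on single lines, 0 or 1 of them remaining when any line was left out.

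PSMB9 was lower after washout than in DMSO in 4 of 4 lines, with values of 130 against 367 CP20M in H2052, 1186 against 1581 in H2452, 101 against 103 in H28 and 500 against 514 in MSTO-211H. In H28 and MSTO-211H these values were nearly equal, and the mean difference of -0.48 (SE 0.264, adjusted p = 0.262) did not pass the test.

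Other genes of the class I pathway were examined as lists. Of the 4 immunoproteasome subunits and activators none was called, and their median change over the sensitive lines was -0.19. PSMB8, the inducible catalytic subunit encoded beside TAP1, had a log2 change of -0.12 (SE 0.133, adjusted p = 0.493). It was nearly silent in H28, with 2, 0 and 7 CP20M in DMSO and 5, 4 and 14 CP20M in palbociclib, while H2452 had 2476, 2434 and 2901 in DMSO and 2262, 1943 and 1756 CP20M in palbociclib. H28 thus had almost no PSMB8 and, in DMSO, the lowest PSMB9. Both TAP1 and PSMB9 were higher under the drug in 3 of 3 pairs of H28, and only TAP1 was called.

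None of the 3 constitutive catalytic subunits was called (median -0.44), nor any of the 5 loading chaperones (median 0.27) or the 6 trimming peptidases (median 0.10). PDIA3, a disulphide isomerase of the loading complex, was at 0.39 and CANX, the lectin chaperone calnexin, at 0.27, both under the fold limit. The chaperone HSPA5 (0.31) and the peptidase LNPEP (0.37) also lay above 0. The constitutive subunits PSMB6 (-0.48) and PSMB7 (-0.44) and the peptidases THOP1 (-0.49) and TPP2 (-0.42) lay below 0. All 6 had an adjusted p under 0.05 in limma but were under the fold limit. ERAP1, which trims peptides in the endoplasmic reticulum, was at 0.03.

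**Figure D4:**
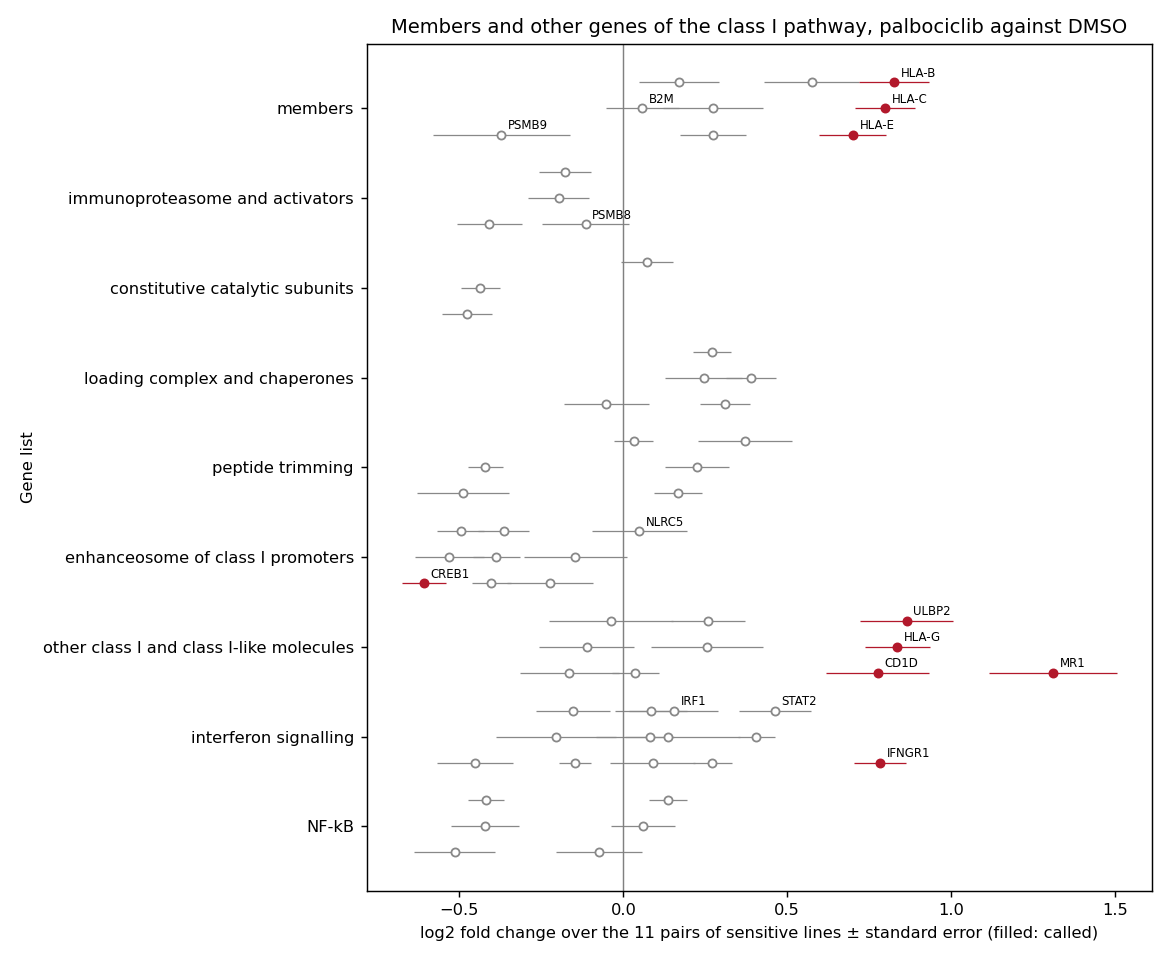
Log2 fold change over the 11 sensitive pairs (x axis, with its standard error) of the 9 genes (top row) and of 8 lists of class I pathway genes, filled red where the gene passed the test. Genes called higher lie in the top row, among class I-like molecules and in interferon signalling, and CREB1 is called lower. As means over the 11 pairs, PSMB8, NLRC5 and IRF1 lie near 0.

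Class I-like molecules had 4 of 10 genes called higher and none lower, where 5.58% of all genes rose and 9.37% fell. MR1, which presents microbial metabolites, changed by 1.31 (SE 0.195, adjusted p = 0.000133). Its values in H2452 went from 46, 81 and 64 to 287, 348 and 302 CP20M and in MSTO-211H from 429, 290 and 220 to 657, 895 and 868 CP20M. ULBP2, a ligand of the activating receptor NKG2D, changed by 0.86 (SE 0.141, 0.000272), and CD1D, which presents lipids, by 0.78 (SE 0.156, 0.00122). The CD1D call rests on low values, 0 to 38 CP20M in sensitive DMSO (median 2) and 0 to 95 CP20M in sensitive palbociclib libraries (median 9). These stayed under the filter, which CD1D passed only in other libraries, with a highest value of 145 CP20M in resistant DMSO. HLA-G, a non-classical heavy chain, changed by 0.84 (SE 0.0996, 2.57e-05), from 535, 650 and 672 to 952, 984 and 972 CP20M in H2452, and its reads may be shared with the other heavy chains. MICA and MICB, also NKG2D ligands, were at 0.04 and -0.16 and did not pass the test.

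The factors known to act on class I promoters gave no call in the direction of the heavy chains. Among 9 genes of this list 1 was called, CREB1, which binds the CRE-like element, with a log2 change of -0.61 (SE 0.0662, adjusted p = 1.32e-05), and the median of the list was -0.39. A count of 1 in 9 was near the 9.37% of all genes that fell. NLRC5 was at 0.05 (SE 0.145, 0.801) over the sensitive lines. Its change was -0.41 in H2052 and -0.21 in H2452, called in neither, so that H28 and MSTO-211H together lay above 0. None of the 6 NF-κB genes was called (median -0.25).

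In interferon signalling, 1 of the 13 genes reported was called higher and none lower, with a median of 0.09. A count of 1 in 13 was near the 5.58% of all genes that rose. IFNGR1, a chain of the interferon-γ receptor, changed by 0.78 (SE 0.0795, adjusted p = 8.60e-06). The other chain of this receptor, IFNGR2, was at -0.45 (SE 0.116, adjusted p = 0.0059), under the fold limit. STAT2 was at 0.46 (SE 0.109, 0.00352), under the fold limit, and IRF1 was at 0.15 (SE 0.136, 0.366). Among lines IRF1 differed in sign, at -0.14 in H2052 and -0.20 in H2452, called in neither, with H28 and MSTO-211H together above 0.

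Several of these genes also differed in response between the classes, where 1.56% of all genes had a higher and 7.81% a lower response in the sensitive lines. The response was higher for 2 of 10 class I-like and 2 of 13 interferon genes. It was lower for 2 of 9 promoter factors and 1 of 3 constitutive subunits. List genes were not refitted with a pair left out. The difference was 0.83 for IFNGR1 (adjusted p = 0.00668), 0.90 for HLA-G (0.0139) and 0.98 for ULBP2 (0.0380), while it was -0.58 for CREB1 (0.0139) and -0.0016 for IRF1 (0.998). After washout HLA-G was above DMSO by 0.69 (adjusted p = 0.0292). In that comparison 3 of 10 class I-like genes were called higher and 1 of 4 immunoproteasome genes lower. Of all genes, 2.81% rose and 2.95% fell. The washout fits of list genes were not repeated without a line.

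Across the 33 libraries, the 5 other genes of the matrix most like the mean log2 level of the 9 genes were AL645939.2 (Pearson r = 0.978), AL671883.3 (0.959), MIR6891 (0.955), BTN3A3 (0.950) and PSMB8-AS1 (0.945). The libraries share lines, so that these values mostly follow the differences between lines. Of the 5, 4 overlap one of the 9 genes: AL645939.2 lies opposite to HLA-F, AL671883.3 opposite to HLA-B, MIR6891 within HLA-B and PSMB8-AS1 across TAP1 and PSMB9. BTN3A3, a butyrophilin encoded on chromosome 6 from 26440472 to 26453415, overlaps none of them.

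Depth and cell identity set limits that all of these values share. Depth could be estimated for 23 libraries, at 12700000 to 19800000 counts, and 10 had 20000000 or more, so that 1 read was worth at most 1.57 CP20M and none of the 297 values of the 9 genes was below 10. Of 7 mesothelial markers, 6 reached 100 CP20M in some library and KRT5 did not exceed 22. Single lines had almost none of some, with DMSO means in H28 of 4.33 CP20M for MSLN, 0.667 for CALB2 and 1.33 for PDPN. KRT19 was at 6, 11 and 0 CP20M in MSTO-211H, MPP89 and MeT-5A. CALB2, the mesothelial marker calretinin, was called higher over the sensitive lines (log2 change 1.69, adjusted p = 0.00409), as HLA-B, HLA-C and HLA-E were. The other 5 markers tested were not called, with MSLN at 0.42, UPK3B at 0.40, PDPN at 0.34, KRT19 at -0.02 and WT1 at -0.43. Of 6 leukocyte markers, CD3E was at 0 throughout and only CD14, a monocyte marker, exceeded 100. CD14 was called higher in H2452 (1.20, adjusted p = 0.0286), where HLA-B, HLA-C and HLA-E were called higher too, and over the sensitive lines it was at 0.25 (adjusted p = 0.342). The summed level of the 6 markers was 13 to 371 CP20M in sensitive DMSO and 12 to 1150 CP20M in sensitive palbociclib libraries. Proliferation markers moved with the treatment, with a log2 change of -3.10 for MKI67 over the sensitive lines, and their summed level was 5694 to 21997 in DMSO, 701 to 5577 in palbociclib and 8464 to 17123 CP20M after washout. The part of these marker changes in the results was not tested. In bulk RNA, a change in every cell and a change in the make-up of the culture cannot be told apart.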

How the data were processed

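The authors prepared strand-specific libraries from total RNA, sequenced them as read pairs, trimmed with Trimmomatic 0.36, mapped to GRCh38 with STAR 2.5.3, counted with HTSeq 0.9.1 on Ensembl 90 and used DESeq2. The deposited values, entered as a score, are counts scaled by the authors to a total of 20000000 per library and rounded up (totals 20007662 to 20021400), so no count model was used. Depth was estimated from the gaps in the low values. log2(CP20M + 10) was fitted with limma 3.58.1 (R 4.3.3, trend) over genes at 100 or more in at least 1 library, with Benjamini-Hochberg adjustment over all 17803 genes and the experiment as a block, since libraries of an experiment deviated together (r = 0.18 to 0.78 in 13 pairs). In H2052 and MPP89, each with 2 pairs, both pairs give the same r by construction, and 0.78 is the value of MPP89. Library pairs within groups held at most 4.33% equal values. Whether replicates were separate cultures is given only as repeated experiments. In fits of a single line and in both F tests, p-values measure the spread between these. Over the sensitive or resistant lines and between the classes, the spread also takes in differences of response between lines, and pairs of a line count as units. In the washout fits, with 1 experiment per line, p-values measure the spread between lines. Scripts were tested on simulated data.

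Members and lists were chosen with earlier results of these data known. Named beyond the 9 genes were the 3 most changed called genes of each list, all called interferon genes, PSMB8, NLRC5, IRF1 and STAT2, and the 5 most alike genes. List genes of other symbols named here were picked after their values were seen. Gene positions came from GENCODE 44 and promoter windows from RefSeq. A further gene of the interferon list is not reported here.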

Additional observations from a re-analysis of the deposited data

Results flagged for a closer look

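In 6 results the response to palbociclib differed between groups of lines by a direct test. Between the sensitive and the resistant lines this held for HLA-B (adjusted p = 0.0254) and HLA-C (0.0171), with log2 differences of 0.83 and 0.77, where 1.56% of all genes passed in this direction. Among the 4 sensitive lines it held for TAP2 (0.00416), TAP1 (0.00435), PSMB9 (0.00449) and HLA-E (0.0442), that is 4 of the 9 genes where 37.1% of all genes passed, and HLA-E was lost in 14 of 19 alternatives. TAP1 and PSMB9 were higher with palbociclib in 3 of 3 pairs of H28 and lower in 2 of 2 pairs of H2052, while HLA-E was higher in 3 of 3 pairs of H28 and of H2452 and in 2 of 3 pairs of MSTO-211H. In 27 groups of 4 values from the washout experiments, no sample stood apart by Dixon's test, which chance passes in about 1 of 20 groups.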

How the results depend on the processing

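Over the sensitive lines, HLA-B (0.73 to 1.02), HLA-C (0.74 to 0.99) and HLA-E (0.62 to 0.90) stayed higher and past the threshold in all 26 alternatives. HLA-F passed in 10 of 26, among them a pseudocount of 1 and both other scalings. Median-of-ratios and upper-quartile scaling shifted the changes of the sensitive pairs by a mean of 0.20 and 0.17 (lowest 0.023 and -0.011, highest 0.35 and 0.38). Pairs of 9 days and of 10 days, split after the data were seen, each gave 3 rises when fitted without the washout libraries. Without H28, 1 of the 9 genes was lower.

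Without the experiment as a block, 0 genes were called in the comparison of the classes, 2 among the sensitive lines, where HLA-E was lost in 14 of 19 alternatives, 0 in washout against DMSO, 1 higher in H28 and 0 lower in H2452. Without a filter the class comparison kept 1 call, and it kept 0 without either MPP89 pair or the MeT-5A pair. In H2052, a pseudocount of 1, no filter or no trend left 0 calls higher and 0 lower, and both scalings left 0 lower. In H2452, a pseudocount of 50 and both scalings left 0 lower, and leaving out a pair left 0 to 1 higher and 0 lower. H28 had 5 rises with the filter set within the line or all lines in a single fit, 4 with median-of-ratios scaling and 0 without any 1 pair. MSTO-211H had 2 rises with the filter set within the line and with median-of-ratios scaling, and 3 with upper-quartile scaling or a single fit. Washout against DMSO kept 0 to 1 calls without a line. The cause of these changes was not tested.

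B2M over the sensitive lines was -0.11 without MSTO-211H, -0.051 in 10-day pairs and -0.025 to 0.115 without a pair. Without a pair, B2M was as low as -0.052 in H2452 and -0.00062 between the classes, and TAPBP ran from -0.336 to 0.144 in MSTO-211H. Without a line, washout against palbociclib ran from -0.048 to 0.065 for TAP1 and as low as -0.0223 for PSMB9, and washout against DMSO from -0.276 to 0.156 for B2M. With median-of-ratios and upper-quartile scaling, B2M was 0.14 and 0.18 in H2052, TAP2 0.056 and 0.043 in H2452, TAPBP 0.067 and 0.046 in MSTO-211H and B2M 0.096 and 0.027 in washout against DMSO. In washout against palbociclib these scalings gave -0.0911 and -0.15 for B2M, -0.13 and -0.19 for TAP1, -0.025 and -0.084 for TAP2 and -0.042 and -0.099 for PSMB9. Of 1413 values under alternatives, 1266 kept their direction and side of the threshold.

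The resistant class rests on 3 pairs and each washout value on 1 library.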
